A study of Homo sapiens with 12 samples.

Results

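The 8 genes described here encode the subunits of TRiC, the chaperonin of the cytosol that is also called CCT. They were taken from the deposited gene table as the rows named TCP1, CCT2, CCT3, CCT4, CCT5, CCT6A, CCT7 and CCT8, which are 8 of 58735 genes. RNA was sequenced from 12 samples of 2 human liver tumour lines, Huh7 from a hepatocellular carcinoma and HepG2 from a hepatoblastoma. The 4 groups were untreated Huh7, Huh7 with geniposide, untreated HepG2 and HepG2 with geniposide, each with 3 samples collected at 48 h, and no other agent or genetic change is named for any of them. Geniposide is an iridoid glycoside of gardenia fruit, its dose is not given in the labels, and the title of the study concerns DUOX1 and ferroptosis in liver cancer. Separate cultures are not named in the labels for the 3 samples of a group, so the p-values speak of spread among these samples alone, and that spread may be technical.

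TRiC is built of paired rings stacked back to back, and each ring holds 8 related subunits in a fixed order, so every complex needs all 8 products. It closes over unfolded proteins in a cycle driven by ATP and is the main folding machine for actins and tubulins. Many proteins with a beta-propeller fold, among them cell cycle activators and G protein subunits, also pass through it. Prefoldin hands it new actin and tubulin chains, and phosducin-like proteins act on it as cofactors.

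Levels are in FPKM, that is, fragments divided by gene length and by library depth, as the authors deposited them. Each library held 15056655 to 17211659 fragments assigned to genes, and a subunit was covered by 2106 to 14464 fragments in a library. The third geniposide library of Huh7 stood apart from the other 2 of its group. The median gene differed from those by 0.24 on the log2 scale, against 0.08 between those 2, and chi-square per degree of freedom was 43.4 and 44.9 against 3.01. Of 8 hepatocyte markers, 0 reached 1 FPKM in any library and APOB was listed at 0 in all 12, so the lines are named below as labelled. The identity of the lines rests on the labels alone and was not tested. Of 3 fetal liver markers 1 reached 1 FPKM, GPC3. Its group means were 26.3 FPKM in untreated and 18.4 FPKM in treated Huh7-labelled samples, and 0 in both HepG2-labelled groups. Leukocyte markers reached 1 FPKM for 0 of 4 genes, endothelial markers for 1 of 3 (CDH5) and fibroblast markers for 3 of 4 (COL1A1, DCN and PDGFRB, with COL1A2 at 0). The summed fibroblast marker level was 3.55 to 3.62 FPKM in untreated and 4.05 to 6.03 FPKM in treated Huh7-labelled libraries, and 21.8 to 23.3 and 22.7 to 23.1 FPKM in the HepG2-labelled ones. The summed epithelial marker level, with KRT8 and KRT18 at 1 FPKM or more and EPCAM below it, was 35.9 to 37.3 and 27.0 to 27.9 FPKM in the former and 646 to 666 and 343 to 380 FPKM in the latter. Their part in the results below was not tested.

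The 8 genes lie at 8 places in the genome, and 2 of them share a chromosome. In hg38, TCP1 (ENSG00000120438) lies on the minus strand of chromosome 6 from 159778498 to 159789749, and CCT8 (ENSG00000156261) on the minus strand of chromosome 21 from 29055805 to 29073797. CCT3 (ENSG00000163468) lies on the minus strand of chromosome 1 from 156308968 to 156367873. CCT4 (ENSG00000115484) lies on the minus strand of chromosome 2 from 61868089 to 61888804, and CCT7 (ENSG00000135624) on its plus strand from 73233420 to 73253021. The other 3 are on plus strands, CCT2 (ENSG00000166226) at 69585334 to 69601570 of chromosome 12, CCT5 (ENSG00000150753) at 10249921 to 10266412 of chromosome 5 and CCT6A (ENSG00000146731) at 56051630 to 56063989 of chromosome 7. The values count fragments over all exons of each gene, and the principal transcripts have 11 (CCT5) to 16 (CCT2) exons and coding sequences of 1593 (CCT6A) to 1668 bases (TCP1).

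The promoters of the 8 genes were read for motifs after their fall with geniposide was seen, as a description. Whether any motif bears on that fall was not tested. RefSeq (GRCh38.p14) windows from 250 bases before to 50 bases after a start matched 7 of the 8 subunits by symbol. CCT2 and CCT4 had 2 windows each, and CCT6A was not matched. These RefSeq starts, from which positions are counted, are not the gene starts listed above. The second window of CCT2 and the windows of CCT3, CCT5 and CCT7 lie wholly inside the genes as placed there. Sequence before the listed starts of CCT3, CCT5 and CCT7 was thus not searched. The stretches that hold the matches are shown 5′ to 3′ on the strand of the gene. Capitals mark CCAAT (or ATTGG on the other strand), the box read by the factor NF-Y, and GAANNTTC or TTCNNGAA, a pair of inverted half-sites of the kind bound by heat shock factors. The 250 bases before each start are chr6:159789603-159789852 (minus strand) for TCP1, chr12:69585209-69585458 and chr12:69585639-69585888 (plus strand) for the 2 windows of CCT2, chr1:156338293-156338542 (minus strand) for CCT3 and chr21:29073649-29073898 (minus strand) for CCT8. For CCT4 the last 30 bases of its window, chr2:61888607-61888636 (minus strand), are shown.
TCP1: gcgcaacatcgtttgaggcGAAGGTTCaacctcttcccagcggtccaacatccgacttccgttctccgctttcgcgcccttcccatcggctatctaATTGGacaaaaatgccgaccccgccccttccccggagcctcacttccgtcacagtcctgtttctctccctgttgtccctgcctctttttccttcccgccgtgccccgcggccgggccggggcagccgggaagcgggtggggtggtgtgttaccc
CCT2, first window: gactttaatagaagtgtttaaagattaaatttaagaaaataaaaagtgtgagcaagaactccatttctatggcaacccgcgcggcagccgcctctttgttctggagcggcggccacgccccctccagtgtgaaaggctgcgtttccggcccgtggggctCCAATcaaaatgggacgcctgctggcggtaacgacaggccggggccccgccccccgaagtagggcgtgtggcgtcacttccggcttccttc
CCT2, second window: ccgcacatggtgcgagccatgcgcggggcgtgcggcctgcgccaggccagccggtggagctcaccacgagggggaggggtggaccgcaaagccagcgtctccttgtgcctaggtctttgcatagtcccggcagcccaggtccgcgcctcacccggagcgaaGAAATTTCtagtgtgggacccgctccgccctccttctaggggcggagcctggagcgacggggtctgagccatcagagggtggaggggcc
CCT3: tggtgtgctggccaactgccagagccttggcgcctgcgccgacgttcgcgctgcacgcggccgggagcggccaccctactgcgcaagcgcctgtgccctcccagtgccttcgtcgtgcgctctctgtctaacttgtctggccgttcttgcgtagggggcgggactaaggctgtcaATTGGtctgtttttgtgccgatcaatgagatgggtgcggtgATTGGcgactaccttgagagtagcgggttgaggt
CCT4, after the start: cccgacgccggcgccgctTTCTGGAAggtt
CCT8: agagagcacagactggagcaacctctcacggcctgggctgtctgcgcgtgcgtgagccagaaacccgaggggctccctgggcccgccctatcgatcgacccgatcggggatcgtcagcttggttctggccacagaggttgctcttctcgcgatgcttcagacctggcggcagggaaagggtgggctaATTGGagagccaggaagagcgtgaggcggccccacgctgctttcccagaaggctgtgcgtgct

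Motifs were searched on both strands, and no 2 of the matches in capitals overlap. The 7 subunits have 9 windows, and shares are given over windows. CCAAT stood in 4 of 9 windows, those of TCP1, CCT3 and CCT8 and the first of CCT2, against 34.4% of 14603 windows of tested genes. CCT3 held it in 2 places, starting 75 and 34 bases before the RefSeq start, both inside the gene as placed above. The matches of CCT8 (at -63) and CCT2 (at -91) also lie inside the genes as placed above. That of TCP1 (at -154) lies before its listed gene start. GAANNTTC was found for TCP1, at -231 from the RefSeq start, and in the second window of CCT2, at -89 but inside the gene. That is 2 of 9 windows against 4.73% of windows of tested genes. TTCNNGAA was found for CCT4 alone, 39 bases into the transcript, in 1 of 9 windows against 6.01%. The GC box GGGCGG was present in 6 of 9 windows (TCP1, both of CCT2, CCT3, CCT7 and CCT8), against 67.2%, and is left in lower case. The E-box CACGTG, the CRE TGACGTCA, the ATF4 core TGATGNAA and both parts of the ZNF143 core (ACTACAA and CCCAGNATG) were found in 0 of 9 windows, against 9.53%, 2.78%, 1.86%, 3.36% and 1.81% of windows. These are matches of letters only. No motif searched was found in the window of CCT5, which lies inside the gene past its listed start. No single motif stood in the windows of all 7.

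All 8 subunits fell with geniposide in both lines, and all treated libraries lay below all untreated libraries of the same line for each of them. The share of all tested genes that were separated in this way is not given here, so this is a description only. The summed level of the 8 went from 926 ± 9.28 to 637 ± 13.7 FPKM in Huh7-labelled samples and from 1057 ± 16.5 to 616 ± 27.8 FPKM in HepG2-labelled samples (SD, n = 3), which is 68.8% and 58.3% of untreated. As a share of all fragments the 8 made up 0.397% ± 0.00280 before and 0.286% ± 0.00432 with geniposide in the former, and 0.385% ± 0.00206 and 0.223% ± 0.00925 in the latter. Changes were tested with limma on log2(FPKM + 1) across 15518 genes, at an adjusted p under 0.05. The fit used a common estimate of spread per gene over all 12 samples. A library of either line can thus move the p-values of the other. In Huh7-labelled samples 8 of 8 subunits were called lower, against 18.1% of all tested genes called lower and 16.4% called higher. In HepG2-labelled samples 8 of 8 were called lower, against 21.5% lower and 21% higher. The subunits are well above the filter of 1 FPKM. With a filter of 5 FPKM, 27.4% of genes were called lower and 17.4% higher in Huh7-labelled samples, and 30.8% and 23.2% in HepG2-labelled samples. The median change of the 8 on the log2 scale was -0.50 and -0.86, while the median of all tested genes was 0 and 0.00. In both lines together, 1435 genes (9.25%) were called lower, which is 51.0% of those called lower in Huh7-labelled and 42.9% of those called lower in HepG2-labelled samples. In bulk samples a lower level per cell and fewer cells that carry the transcript cannot be told apart.

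**Figure D1:**
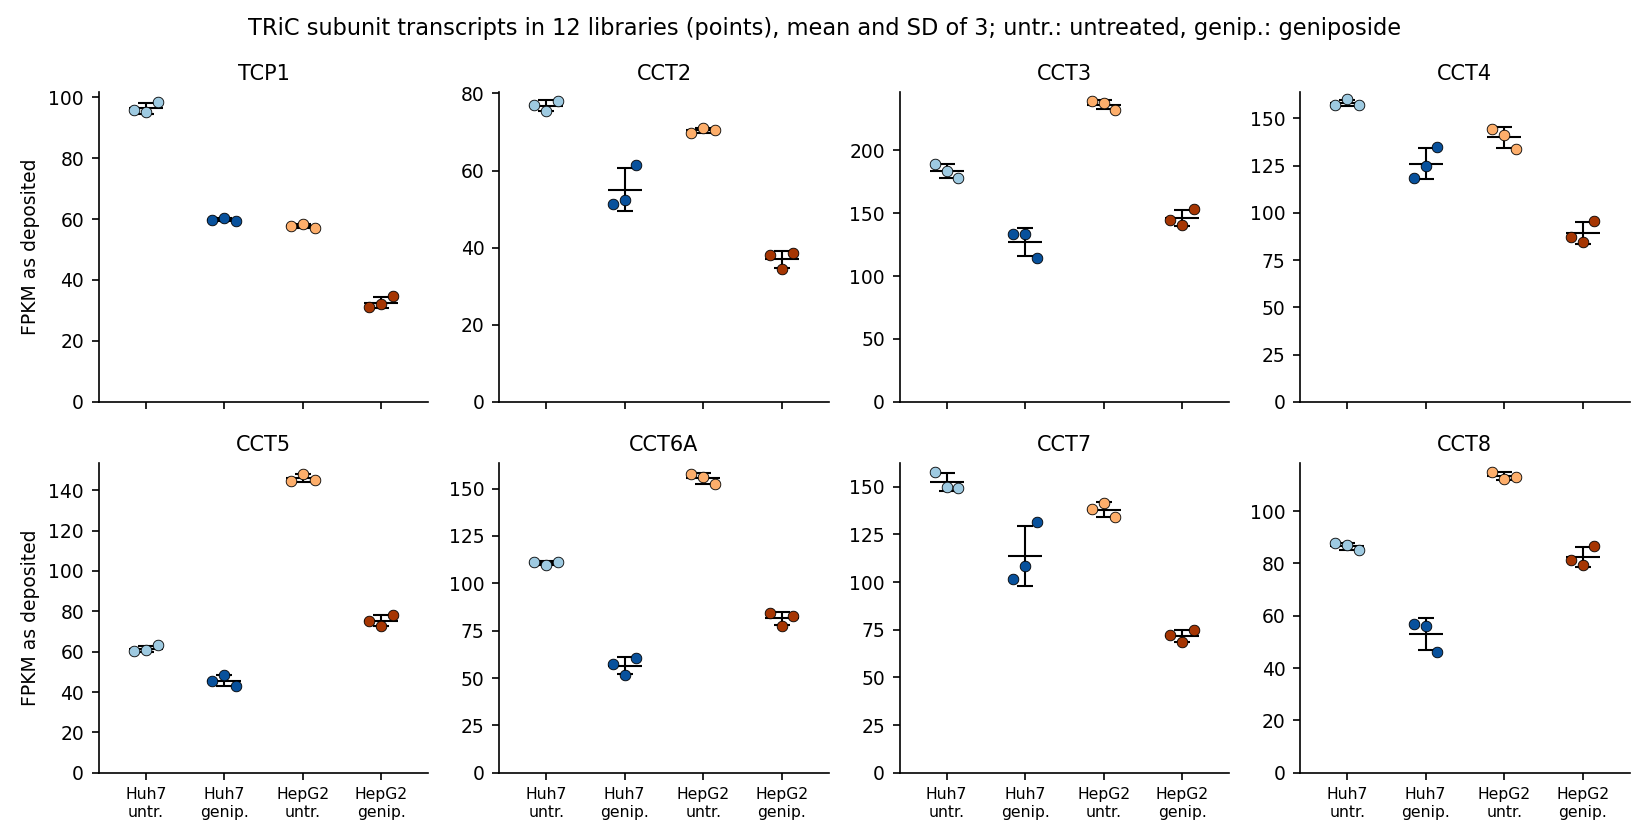
FPKM of each TRiC subunit (vertical axes, from 0) in the 4 groups of 3 libraries, with points for libraries and bars for mean and SD (untr., untreated; genip., geniposide). In each line all 3 treated points lie below all 3 untreated points for all 8 subunits, and the third treated Huh7 library is the highest treated point for CCT7 (132 FPKM) and the lowest for CCT3 (114 FPKM) and CCT8 (46.2 FPKM).

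TCP1, the alpha subunit and the first of the family to be described, stood at 95.7, 95.01 and 98.3 FPKM in untreated and 59.6, 60.4 and 59.4 FPKM in treated Huh7-labelled libraries, and at 57.7, 58.4 and 57.0 against 31.1, 32.0 and 34.6 FPKM in HepG2-labelled libraries. The treated Huh7 values lay close together, the third library included, and the groups did not overlap. TCP1 fell by 0.68 ± 0.05 on the log2 scale (SE, adjusted p = 4.71e-06) and by 0.81 ± 0.05 (adjusted p = 6.31e-07), to 62.1% and 56.4% of untreated. CCT6A, the zeta subunit, stood at 111, 109.5 and 111 against 57.4, 51.8 and 60.5 FPKM in Huh7-labelled libraries, and at 158, 156 and 152 against 84.1, 77.5 and 83.0 FPKM in HepG2-labelled libraries. The treated libraries of each line lay close together and far below the untreated ones. CCT6A fell by 0.96 ± 0.06 (adjusted p = 3.13e-06) and by 0.92 ± 0.06 (adjusted p = 1.15e-06), to 51.1% and 52.5% of untreated. In Huh7-labelled samples this was the deepest fall of the 8, and 0.709% of all tested genes fell at least as far. CCT3, the gamma subunit and the highest of the 8 in every group mean, stood at 189, 183 and 178 against 133, 133 and 114 FPKM, and at 239.5, 237 and 232 against 145, 140.2 and 153 FPKM. The third treated Huh7 library was the lowest of its group. CCT3 fell by 0.53 ± 0.06 (adjusted p = 0.000169) and by 0.69 ± 0.06 (adjusted p = 1.53e-05), to 69.2% and 61.8%.

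CCT8, the theta subunit, was the member with the smallest fall in HepG2-labelled samples. Its values were 87.8, 86.9 and 85.1 against 56.9, 56.2 and 46.2 FPKM in Huh7-labelled libraries, and 115, 112 and 113 against 81.3, 79.3 and 86.5 FPKM in HepG2-labelled libraries. It fell by 0.70 ± 0.07 (adjusted p = 6.54e-05) and by 0.46 ± 0.07 (adjusted p = 0.000527), to 61.3% and 72.7% of untreated. CCT4, the delta subunit, had the smallest fall in Huh7-labelled samples, where it stood at 157, 160.1 and 157 against 119, 125 and 135 FPKM. In HepG2-labelled libraries it stood at 145, 141 and 134 against 87.2, 84.7 and 95.9 FPKM. CCT4 fell by 0.33 ± 0.06 (adjusted p = 0.00238) and by 0.64 ± 0.06 (adjusted p = 1.80e-05), to 79.8% and 63.8%. In Huh7-labelled samples 15.5% of all tested genes fell at least as far as CCT4 did, so its fall was not deep for that comparison.

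CCT5, the epsilon subunit, which can form rings of its own when made in bacteria, fell deepest of the 8 in HepG2-labelled samples. It stood at 60.5, 60.7 and 63.2 against 45.4, 48.5 and 43.2 FPKM in Huh7-labelled libraries, and at 144, 148 and 145 against 75.4, 72.7 and 78.1 FPKM in HepG2-labelled libraries. CCT5 fell by 0.42 ± 0.05 (adjusted p = 0.000153) and by 0.94 ± 0.05 (adjusted p = 4.46e-07), to 74.3% and 51.7% of untreated. Here 1.56% of all tested genes fell at least as far in HepG2-labelled samples and 10.1% in Huh7-labelled ones. CCT2, the beta subunit, stood at 76.9, 75.3 and 78.1 against 51.4, 52.3 and 61.5 FPKM, and at 69.7, 71.1 and 70.5 against 38.0, 34.4 and 38.5 FPKM. The third treated Huh7 library was the highest of its group and lay below all untreated ones. CCT2 fell by 0.48 ± 0.07 (adjusted p = 0.000463) and by 0.91 ± 0.07 (adjusted p = 3.64e-06), to 71.7% and 52.5%. CCT7, the eta subunit, stood at 158, 149.9 and 149 against 102, 108 and 132 FPKM, and at 139, 141.5 and 134 against 72.2, 68.6 and 74.9 FPKM. Its treated Huh7 libraries were at 66.6%, 71.1% and 86.4% of the untreated mean, the widest spread of the 8 in any group. CCT7 fell by 0.43 ± 0.08 (adjusted p = 0.00279) and by 0.93 ± 0.08 (adjusted p = 1.11e-05), to 74.7% and 52.1%. In a fit of the Huh7-labelled samples alone its adjusted p was 0.0432.

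The fall was larger in HepG2-labelled than in Huh7-labelled samples for 4 of the 8 subunits, CCT5, CCT7, CCT2 and CCT4, by a test of the difference itself. The HepG2 effect minus the Huh7 effect was -0.52 ± 0.07 for CCT5 (adjusted p = 0.000592), -0.51 ± 0.12 for CCT7 (adjusted p = 0.0101), -0.44 ± 0.10 for CCT2 (adjusted p = 0.00806) and -0.32 ± 0.09 for CCT4 (adjusted p = 0.0214). Against 4 of 8 subunits, 13.7% of all tested genes were called lower in this comparison and 14.1% higher. For the other 4 the difference did not pass. Its 95% confidence interval was -0.27 to 0.01 for TCP1 (adjusted p = 0.165), -0.36 to 0.04 for CCT3 (adjusted p = 0.223), -0.15 to 0.22 for CCT6A (adjusted p = 0.778) and 0.02 to 0.47 for CCT8 (adjusted p = 0.102). CCT8 was thus the one subunit whose estimate lay well on the side of a larger fall in Huh7-labelled samples. Without the third treated Huh7 library 5 subunits were called lower and 1 higher, against 20.01% and 19.8% of all genes tested in that setting. CCT3 then had a difference of -0.23 (adjusted p = 0.00854) and CCT8 one of 0.15 (adjusted p = 0.0378). For CCT4 the adjusted p was 0.0504 to 0.0553 without any one of HepG2 untreated libraries 1 and 2 and HepG2 treated libraries 1 and 2, which ended its call.

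**Figure D2:**
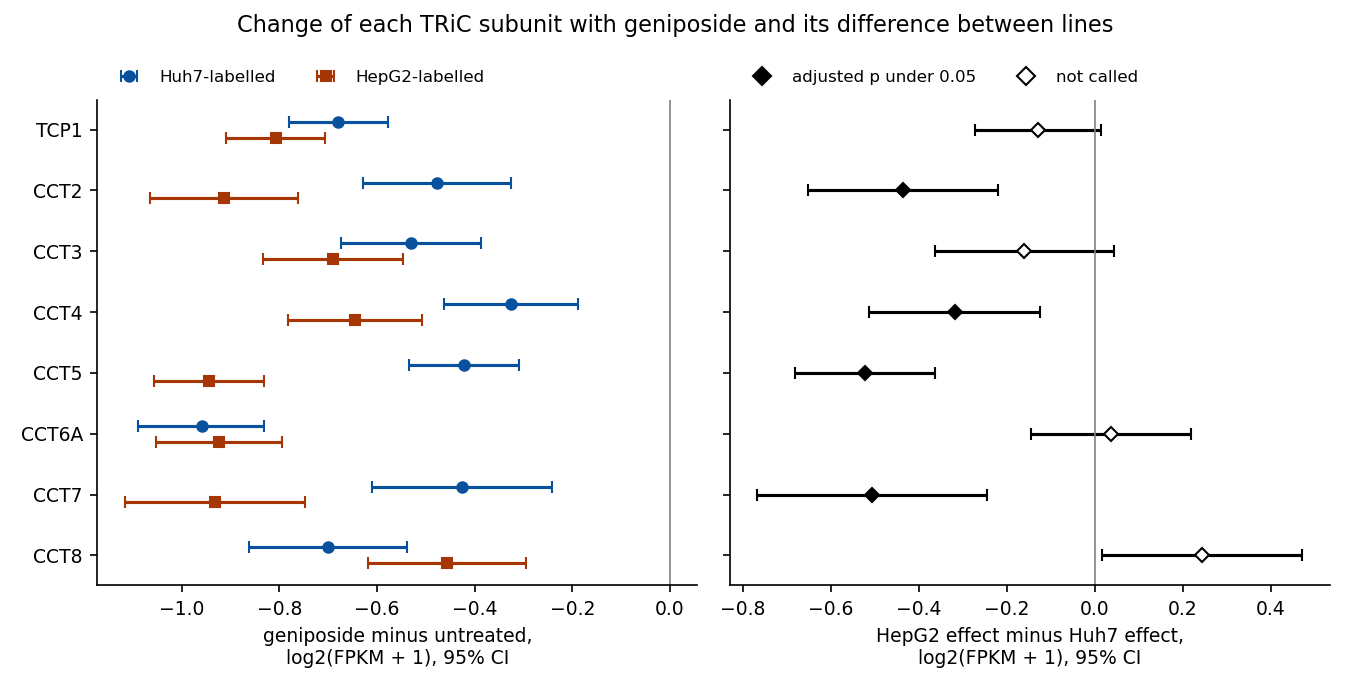
Left, change of each subunit with geniposide in log2(FPKM + 1) with its 95% confidence interval, circles for Huh7-labelled and squares for HepG2-labelled samples. Right, the HepG2 effect minus the Huh7 effect with its interval, filled where the adjusted p was under 0.05; CCT2, CCT4, CCT5 and CCT7 lie below 0, and CCT8 is the one with an interval above 0 that did not pass.

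Since TRiC holds its subunits in equal numbers, the makeup of the set was also described, as each subunit's percentage of the summed FPKM of the 8 in its library. These shares do not depend on how libraries were scaled, they carry no test here, and they compare genes per length. In untreated samples CCT3 had the largest share, 19.8% ± 0.455 in Huh7-labelled and 22.3% ± 0.0875 in HepG2-labelled libraries (SD, n = 3). The smallest was CCT5 in the former, at 6.64% ± 0.208, and TCP1 in the latter, at 5.46% ± 0.0449. CCT5 showed the widest gap between the lines, with 13.8% ± 0.238 in untreated HepG2-labelled libraries. With geniposide the share of CCT6A was 8.88% ± 0.633 against 11.96% ± 0.112 untreated in Huh7-labelled libraries, and 13.2% ± 0.424 against 14.7% ± 0.0840 in HepG2-labelled ones. That of CCT4 was higher in both, at 19.8% ± 0.854 against 17.1% ± 0.317 and 14.5% ± 0.353 against 13.2% ± 0.317. CCT8 went in opposite directions, with 8.35% ± 1.10 against 9.35% ± 0.0983 in Huh7-labelled and 13.4% ± 0.119 against 10.7% ± 0.187 in HepG2-labelled libraries, and its 3 treated Huh7 values were 9.12%, 8.85% and 7.09%. The ratio of the highest to the lowest subunit was 2.98 and 2.78 without and with geniposide in Huh7-labelled groups, and 4.09 and 4.49 in HepG2-labelled groups.

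**Figure D3:**
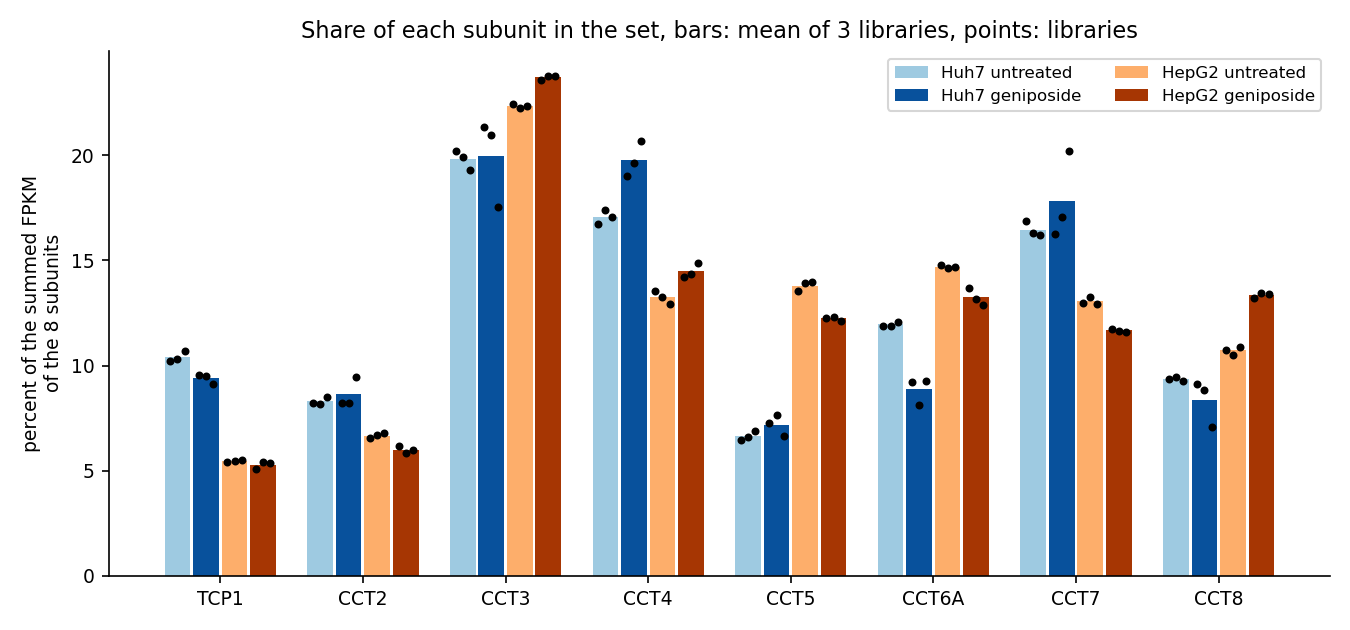
Share of each subunit in the summed FPKM of the 8 (vertical axis, percent, from 0), with bars for the mean of 3 libraries and points for libraries. CCT3 has the tallest bars in every group, CCT5 differs most between the lines (6.64% and 13.8% untreated), and CCT6A has a lower bar with geniposide in both lines.

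The order of levels in untreated Huh7-labelled samples was CCT3 (183 FPKM), CCT4 (158), CCT7 (152), CCT6A (111), TCP1 (96.3), CCT8 (86.6), CCT2 (76.8) and CCT5 (61.5). Of neighbours in that order, the libraries of CCT4 and CCT7 overlapped and those of the other pairs did not. In untreated HepG2-labelled samples the order was CCT3 (236 FPKM), CCT6A (155), CCT5 (146), CCT4 (139.9), CCT7 (138), CCT8 (113), CCT2 (70.4) and TCP1 (57.7), with overlap between CCT5 and CCT4 and between CCT4 and CCT7. With geniposide more neighbours overlapped. In Huh7-labelled samples only CCT7 and the next one down, TCP1, were apart, and in HepG2-labelled samples only CCT3 and CCT4 and, further down, CCT7 and CCT2. This order depends on the length by which a gene is divided. The deposited lengths equal the union of all annotated exons for all 8 subunits, from 2830 bases (CCT4) to 5839 bases (CCT5), while principal transcripts are 1916 (CCT7) to 3675 bases (CCT5) long. Per length of the principal transcript CCT3 stayed highest, and CCT7 took the next place with 18.3% of the set in untreated Huh7-labelled and 14.7% in untreated HepG2-labelled libraries. CCT4 then had 11.4% and 8.91%, against 17.1% and 13.2% per deposited length.

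Between the untreated lines, CCT5 and TCP1 stood furthest apart. CCT5 was higher in HepG2-labelled samples by 1.23 ± 0.05 on the log2 scale (adjusted p = 1.98e-09), while TCP1 was lower, with a change of -0.73 ± 0.05 (adjusted p = 7.33e-08). CCT6A, CCT8 and CCT3 were higher by 0.49, 0.38 and 0.36 (adjusted p = 1.78e-05, 0.000622 and 0.000398), and CCT4 was lower, with a change of -0.18 (adjusted p = 0.0253). CCT2 and CCT7 did not pass (adjusted p = 0.130 and 0.149, intervals -0.28 to 0.03 and -0.33 to 0.04). In all 4 of 8 were called higher and 2 of 8 lower, against 36.1% and 35.8% of all tested genes, so the counts themselves are near the background. The call of CCT4 ended without Huh7 untreated library 1, 2 or 3 or HepG2 untreated library 2 or 3 (adjusted p 0.0508 to 0.0948), and CCT2 and CCT7 were called lower without the third treated Huh7 library (adjusted p = 0.0163 and 0.0105). The counts also rest on the scaling between lines. With TPM, in which each library sums to the same total, the median of all genes moved to -0.27, and with voom on recovered fragments to -0.30. Either way 2 of 8 subunits were called higher (CCT5 and CCT6A) and 4 of 8 lower (TCP1, CCT2, CCT4 and CCT7). Of all tested genes 27.28% were called higher and 47.35% lower with TPM, and 27.14% and 47.34% with voom. These counts too are near the background. Relative to the median of all genes, over the deposited scaling and 4 others, CCT5 was 0.98 to 1.26 higher, TCP1 was at -1.02 to -0.72, CCT6A at 0.25 to 0.50 and CCT8 at 0.06 to 0.40. Of all calls, 50.2% were higher as deposited, 36.6% with TPM and 36.4% with voom. The same split was 47.5%, 61.6% and 60.9% for geniposide in Huh7-labelled samples, and 50.9% as deposited and 40.1% with voom for the difference between lines. Under those scalings all 8 subunits were still called lower with geniposide in both lines.

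At 5 of the 8 subunits, a protein-coding gene starts within 1 kb on the other strand, against 17.5% (2126 of 12150) of tested protein-coding genes. The starts lie 24 bases apart for CCT5 and FAM173B, 26 for CCT6A and PSPH, 63 for TCP1 and MRPL18, 80 for CCT4 and COMMD1 and 182 for CCT7 and PRADC1. These distances are between the outermost annotated gene starts. The principal transcript of CCT7 starts further from PRADC1, at 73234238, while those of the other subunits named here start at the gene starts. PSPH, the last enzyme of serine synthesis, moved against CCT6A in Huh7-labelled samples. It rose there from 12.7 ± 0.743 to 26.3 ± 4.59 FPKM (0.98 ± 0.11, adjusted p = 9.24e-05) and fell in HepG2-labelled samples from 15.8 ± 0.877 to 8.41 ± 0.816 FPKM (adjusted p = 0.000132). The difference between the lines was -1.81 for PSPH (adjusted p = 3.34e-05) and 0.04 for CCT6A. FAM173B fell with CCT5 in both lines, from 6.67 to 5.09 FPKM (adjusted p = 0.00228) and from 10.9 to 6.97 FPKM (adjusted p = 4.02e-05). MRPL18, a protein of the mitochondrial ribosome, and COMMD1 fell in HepG2-labelled samples, to 22.3 from 36.6 and to 3.45 from 5.94 FPKM (adjusted p = 0.000266 and 0.00494). In Huh7-labelled samples they had adjusted p of 0.187 and 0.679, and leaving out the third treated library made MRPL18 called there (-0.32, adjusted p = 0.000725). PRADC1 was not called in either line (adjusted p = 0.0511 and 0.635), and in Huh7-labelled samples it was called higher under 4 of 4 other scalings (adjusted p 0.0177 to 0.0374).

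**Figure D4:**
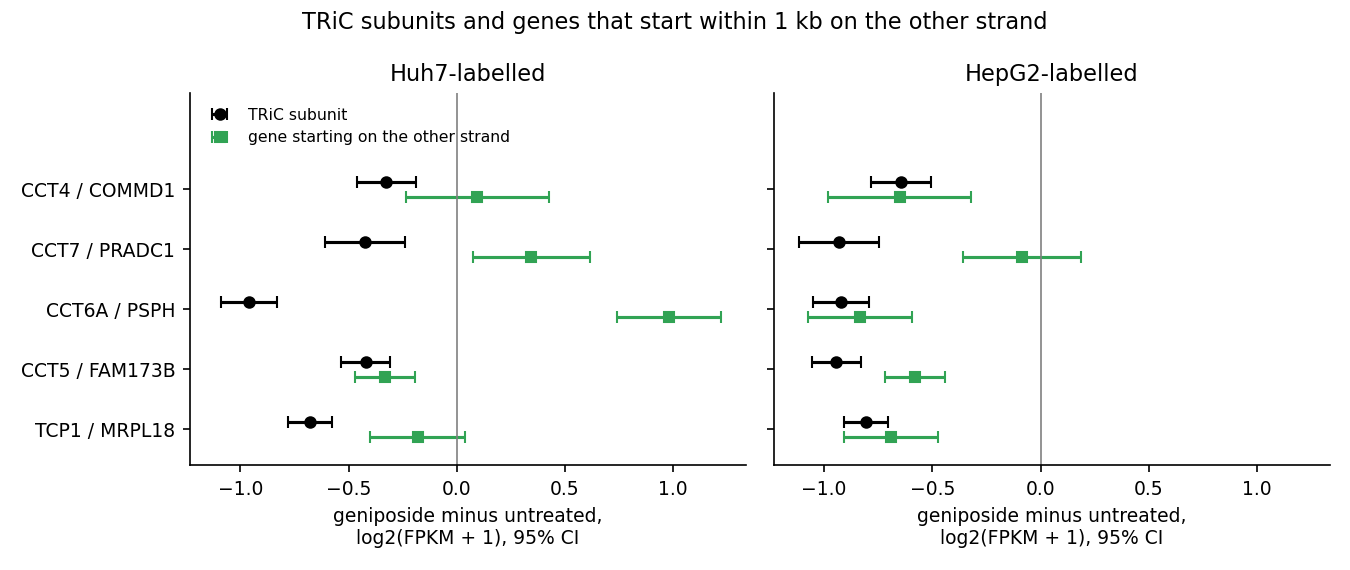
Change with geniposide in log2(FPKM + 1), with 95% confidence intervals, of 5 TRiC subunits (circles) and of the protein-coding genes that start within 1 kb on the other strand (squares). All subunits lie below 0 in both panels, while PSPH lies at 0.98 in Huh7-labelled and at -0.83 in HepG2-labelled samples.

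Reads without strand cannot separate genes that overlap. By gene spans, introns included, COMMD1 overlaps CCT4 by 81 bases, TSACC overlaps CCT3 by 9682 bases, and ACAT2 overlaps the end of TCP1 by 558 bases. Their group means were at most 5.94, 1.76 and 12.7 FPKM. Overlap of exons was not measured. The 13 pseudogenes of subunits in the table held 0.372% as many fragments as the subunits themselves. Of these, 2 reached 1 FPKM in any library, CCT6P1 at up to 5.70 FPKM and CCT6P3 at up to 1.52 FPKM. How reads that match both CCT6A and such a copy were assigned is not stated, so the level of CCT6A is uncertain to that extent. CCT6B, the paralogue of CCT6A known from testis, had group means of 0.0731 to 0.713 FPKM and was not tested.

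Across the 12 libraries, with each line centred on its own mean, the subunits followed one another closely. The Pearson r of a subunit with the mean of the other 7 was 0.993 for TCP1, 0.976 for CCT3, 0.973 for CCT2, 0.970 for CCT4, 0.968 for CCT6A, 0.965 for CCT5, 0.950 for CCT7 and 0.879 for CCT8. The libraries have the treatment in common and are of like depth, and 682 of 4598 protein-coding genes of 10 FPKM or more had an r of 0.9 or more with the mean of the 8, so a high r is common here. Among the 10 genes most like the subunits, with r of 0.992 to 0.996, were XRCC5, a DNA end-binding protein, PRPS1 of nucleotide synthesis, the proteasome subunit PSMA4, the histone chaperone ANP32E, the RNA methyltransferase NSUN2, ADSS of purine synthesis, the mitochondrial flavoprotein AIFM1, the dynein and HSP90 cofactor NUDC, and NT5DC2. Group means of XRCC5 were 85.7 and 59.9 FPKM without and with geniposide in Huh7-labelled and 71.8 and 42.1 FPKM in HepG2-labelled samples, and those of NUDC were 52.8 and 33.0, and 68.9 and 35.6 FPKM. They were chosen for this likeness, so their falls are no separate result.

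Genes that work beside TRiC are given by list, to be read against 18.1% of all tested genes called lower and 16.4% higher in Huh7-labelled samples, and 21.5% and 21% in HepG2-labelled samples. Without the third treated Huh7 library these shares of all genes were themselves larger, 23.8% lower in the former and 27.7% lower in the latter. Actins, tubulins and the HSP70 genes have near-identical copies, so their values are uncertain where reads could be split. Pairs of values are given for Huh7-labelled samples first and HepG2-labelled samples next. Both genes of the mitochondrial chaperonin were called lower in both lines: HSPD1 went to 133 ± 24.0 from 269.8 ± 3.91 and to 87.7 ± 0.481 from 151 ± 2.65 FPKM (adjusted p = 5.68e-05 and 0.000167), and its lid HSPE1 to 12.5 from 27.3 and to 8.02 from 16.2 FPKM (adjusted p = 9.56e-06 and 8.99e-06). Of 12 heat shock proteins of the cytosol 10 were called lower in Huh7-labelled and 12 in HepG2-labelled samples, with medians of -1.03 and -0.65 and 0 called higher. Without the third treated Huh7 library 12 were called lower in the former too. HSPA8, the constitutive HSP70, fell to 79.0 from 256 and to 164 from 262 FPKM (adjusted p = 3.04e-07 and 2.01e-05), further in Huh7-labelled samples (difference 1.01, adjusted p = 5.90e-05), which is the opposite side from CCT5, CCT7, CCT2 and CCT4. Of 3 tested chaperonin-like genes of Bardet-Biedl syndrome 0 were called lower in either line, or 1 in HepG2-labelled samples without the third treated Huh7 library. There were 2 called higher in Huh7-labelled samples and 0 in HepG2-labelled ones. MKKS rose from 2.95 to 3.96 FPKM (adjusted p = 0.00765) and BBS12 from 1.28 to 1.94 FPKM (adjusted p = 0.0236, but 0.0540 without the third treated library and 0.0987 with quantile normalization).

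Prefoldin, which has 6 subunits, was called lower for 3 of them in Huh7-labelled and 2 in HepG2-labelled samples, against 18.1% and 21.5% of all tested genes, and higher for 0. VBP1 fell in both, to 49.5 ± 5.81 from 69.5 ± 0.840 and to 21.8 ± 1.5 from 29.7 ± 0.705 FPKM (adjusted p = 0.000716 and 0.00102). PFDN4 and PFDN5 fell in Huh7-labelled samples (adjusted p = 0.00990 and 0.0173, the latter 0.116 with quantile normalization) and PFDN6 in HepG2-labelled samples (from 15.6 to 10.04 FPKM, adjusted p = 0.00263). Without the third treated Huh7 library 5 of 6 and 4 of 6 were called lower, against 23.8% and 27.7% of all genes. Of 9 prefoldin-like and R2TP genes, 5 were called lower and 1 higher in Huh7-labelled samples, and 6 and 0 in HepG2-labelled samples. The count lower was 3 to 4 in Huh7-labelled samples under the 4 other scalings (3 with quantile normalization) and 5 in HepG2-labelled samples under each of them. Under those scalings 13.1% to 18% of all genes were called lower in the former and 17.4% to 20.45% in the latter. The ATPases RUVBL1 and RUVBL2 fell in both lines, RUVBL1 to 20.2 from 25.4 and to 8.69 from 15.6 FPKM (adjusted p = 0.00244 and 4.66e-06) and RUVBL2 to 38.4 from 53.1 and to 38.5 from 54.3 FPKM (adjusted p = 0.00383 and 0.00204), the former of which was 0.0531 with quantile normalization. The one rise was PDRG1, from 15.1 ± 0.304 to 22.8 ± 2.19 FPKM in Huh7-labelled samples (adjusted p = 0.000239). Of 3 tested phosducin-like cofactors 1 and 2 were called lower, against 18.1% and 21.5% of all genes, and 2 in Huh7-labelled samples without the third treated library. PDCL3 fell in both lines, to 4.52 from 11.4 and to 3.62 from 8.19 FPKM (adjusted p = 0.000195 and 0.000355), and TXNDC9 in HepG2-labelled samples, from 8.29 to 4.17 FPKM (adjusted p = 0.00200).

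Among client proteins, those that TRiC folds, 4 of 6 actins and actin-related proteins were called lower in Huh7-labelled and 5 of 6 in HepG2-labelled samples, with medians of -0.33 and -0.53 and 0 higher. Of all tested genes 18.1% and 21.5% were called lower. Without the third treated Huh7 library 6 of 6 were called lower in each line, against 23.8% and 27.7% of all genes. ACTB, beta-actin, fell to 291 ± 31.7 from 658 ± 9.48 and to 769 ± 31.2 from 1868 ± 42.3 FPKM (adjusted p = 3.76e-06 and 8.35e-07). ACTG1 fell in Huh7-labelled samples from 934 ± 17.5 to 559 ± 167 FPKM (adjusted p = 0.00613). In HepG2-labelled ones its adjusted p was 0.160, or 8.00e-05 without the third treated Huh7 library. The HepG2 estimate was -0.33 either way, and only the shared spread differed. Of 11 tested tubulins 7 were called lower and 1 higher in Huh7-labelled, and 8 and 2 in HepG2-labelled samples, against 18.1% and 16.4%, and 21.5% and 21%, of all genes. With TPM, or without the third treated library, 2 were called higher in Huh7-labelled samples, against 21.01% and 22.21% of all genes. TUBA1B fell in both, to 138 from 199.6 and to 97.2 from 208 FPKM (adjusted p = 2.82e-05 and 1.19e-07), and TUBB4B to 124 from 244 and to 200.4 from 246 FPKM (adjusted p = 3.13e-06 and 0.00206). TUBA1A rose in both, to 47.3 from 33.6 and to 15.7 from 10.6 FPKM (adjusted p = 4.95e-05 and 1.26e-05). Gamma-tubulin TUBG1 fell in HepG2-labelled samples, from 48.9 to 28.1 FPKM (adjusted p = 0.000295), and not detectably in Huh7-labelled ones (adjusted p = 0.845, difference -0.82, adjusted p = 0.00423). Of 6 tubulin cofactors, which take tubulins on from TRiC, 2 and 3 were called lower, against 18.1% and 21.5% of all genes, TBCA in both lines (33.1 to 26.8 and 26 to 19.4 FPKM, adjusted p = 0.00789 and 0.000878).

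Of 12 beta-propeller clients 4 were called lower and 0 higher in Huh7-labelled samples, and 5 lower and 2 higher in HepG2-labelled samples. Of all tested genes 18.1% and 16.4% were called lower and higher in the former, and 21.5% and 21% in the latter. The medians were -0.04 and -0.19. The former turned to 0.03 with TPM or voom, with 1 and 2 called higher, against 21.01% and 22.09% of all genes. The mitotic activator CDC20 fell in both lines, to 58.1 from 85.0 and to 71.0 from 91.9 FPKM (adjusted p = 2.61e-05 and 0.000148), as did GNB4, a G protein subunit, to 4.44 from 6.70 and to 8.36 from 11.4 FPKM (adjusted p = 0.000117 and 0.000236). Of these clients 7 were called lower in Huh7-labelled and 8 in HepG2-labelled samples when the third treated Huh7 library was left out, against 23.8% and 27.7% of all genes. Of 9 other clients 5 were called lower in each line, the mitotic kinase PLK1 among them (38.5 to 23.3 and 49.0 to 41.2 FPKM, adjusted p = 5.72e-06 and 0.00201, the latter 0.0561 with quantile normalization), and 2 and 3 higher. The count lower was 3 with TPM in Huh7-labelled samples and 3 with quantile normalization in HepG2-labelled samples. Of all genes 13.1% and 20.45% were called lower with those scalings, and 18.1% and 21.5% as deposited. The tumour suppressor VHL rose in both, to 55.7 from 40.4 and to 20.9 from 17.1 FPKM (adjusted p = 0.000135 and 0.00171). Of 4 factors proposed to act on TRiC genes, HSF2 rose in both lines at adjusted p of 0.0327 and 0.0479, the latter 0.0668 with voom. HSF1 had adjusted p of 0.700 and 0.367, and 0.0206 in Huh7-labelled samples without the third treated library. MYC fell in Huh7-labelled samples from 78.5 ± 4.11 to 50.2 ± 10.1 FPKM (adjusted p = 0.00135) and had 113 ± 5.30 and 125 ± 6.68 FPKM in HepG2-labelled samples (adjusted p = 0.376), and this difference between lines passed (0.79, adjusted p = 0.00478). ZNF143 fell in Huh7-labelled samples, from 4.29 to 3.17 FPKM (adjusted p = 0.0236, but 0.0566 with TPM), and in HepG2-labelled samples had an adjusted p of 0.298.

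**Figure D5:**
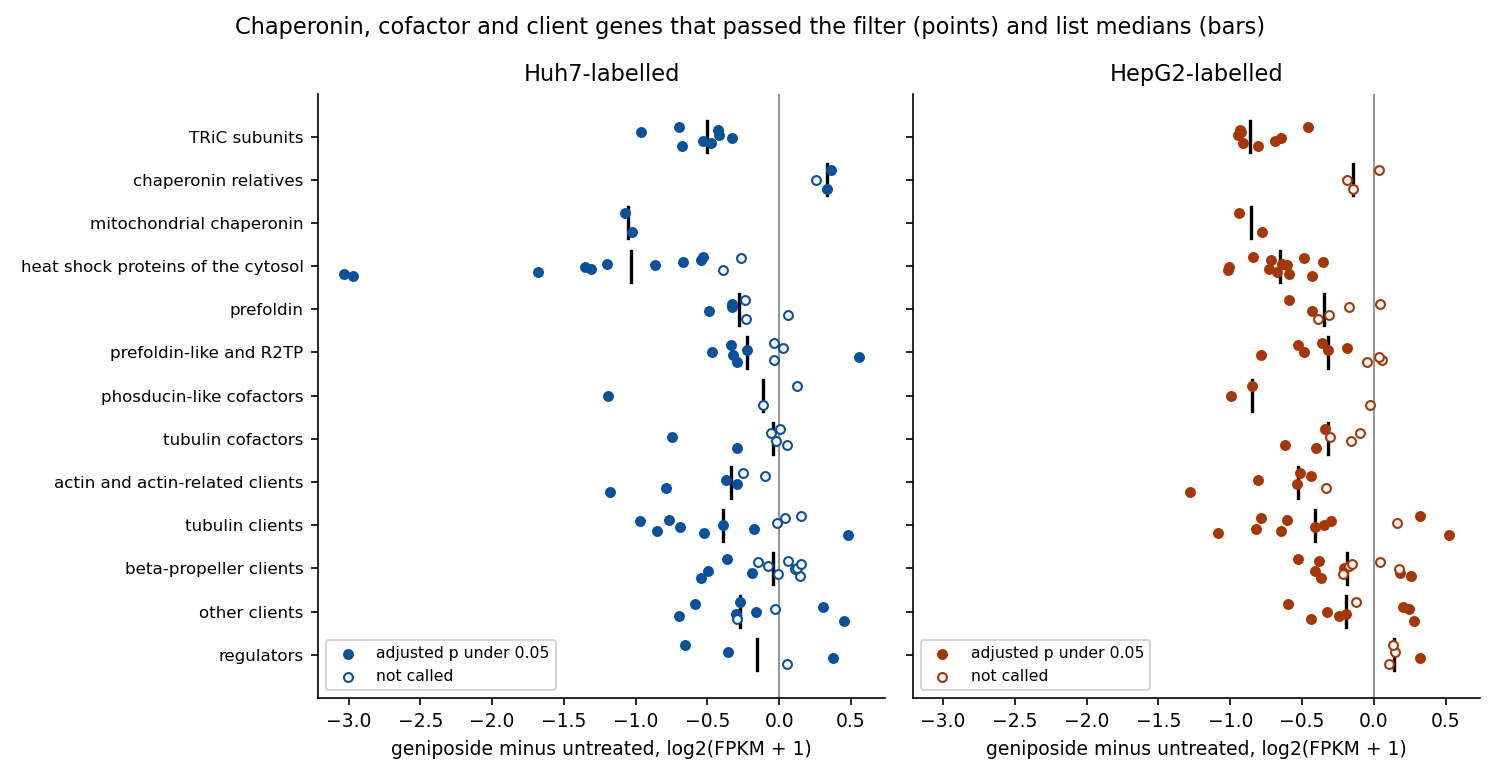
Change with geniposide in log2(FPKM + 1) of the genes of each list that passed the filter of 1 FPKM (points, filled where the adjusted p was under 0.05), with black bars for list medians, on the same axis for both lines. All 8 TRiC subunits are filled and below 0 in both panels (medians -0.50 and -0.86), and the tubulin and prefoldin-like lists hold genes on both sides of 0.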

How the data were processed

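RNA from 12 samples (4 groups of 3) was sequenced, and the authors deposited 1 table of FPKM per gene with gene lengths and coordinates (hg38). The submitters' processing notes name CASAVA and fastp without versions, and no aligner or counter is named there. Multiplied by length, the deposited FPKM values gave whole fragments within 0.05, and libraries held 15056655 to 17211659 fragments. The depth that the deposited FPKM imply was 0.895 to 1.17 times these totals, so TPM was tried as another scaling. No per-sample column was left unused. Strand is not recorded in the sources used here.

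Genes with 1 FPKM or more in at least 3 samples (15518, with all 8 subunits) were fitted with limma 3.58.1 (R 4.3.3) on log2(FPKM + 1), with 4 group means, a mean-variance trend and two-sided p-values adjusted by Benjamini-Hochberg over all genes tested. A fold change on that scale understates changes of low genes. The scripts were tested on simulated data. Values were tabulated with Python 3.11.15, pandas 2.3.3 and numpy 2.4.6 and drawn with matplotlib 3.10.9.

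The subunits, 12 lists of relatives, cofactors, clients, heat shock proteins and regulators and the marker lists were chosen with earlier results of these data known. All 120 listed symbols were found, and TBCE occurs under 2 identifiers. Named genes are the subunits, any list member, genes starting within 1 kb on the other strand, overlapping genes, pseudogenes, and the 10 protein-coding genes of 10 FPKM or more with the highest r. Some of the genes that this rule names are not reported here. Gene models were those of GENCODE 29, and promoters came from RefSeq (GRCh38.p14). Alternatives were other pseudocounts, filters, scalings, fits of the compared groups alone, a replicate block and leaving out each library. Shares per principal transcript length, the motif search, and the scalings and left-out library for the lists, were chosen after seeing the data.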

Additional observations from a re-analysis of the deposited data

Results flagged for a closer look

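The fall of 4 TRiC subunits with geniposide differed between the lines by a test of the difference itself, limma's contrast of the HepG2 effect minus the Huh7 effect. On the log2 scale it was -0.52 for CCT5, -0.51 for CCT7, -0.44 for CCT2 and -0.32 for CCT4, each a larger fall in HepG2-labelled samples. Of all tested genes 13.7% were called lower and 14.1% higher in this contrast. The call of CCT4 ended when certain single HepG2-labelled libraries were left out, and also with the replicate block. Treated libraries of the Huh7 group were at 70.2% to 78.9% of the untreated mean for CCT5, 66.6% to 86.4% for CCT7, 66.9% to 80.1% for CCT2 and 75.1% to 85.3% for CCT4. For CCT7, CCT2 and CCT4 the third library was the highest of these.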

How the results depend on the processing

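Over 22 alternatives, 176 of 176 subunit values in each line kept their direction and stayed called lower with geniposide. They ran from -1.01 to -0.14 in Huh7-labelled samples (limma, largest adjusted p = 0.0432) and from -0.97 to -0.37 in HepG2-labelled samples (largest 0.0143). Part of this was fixed in advance. The filters, the compared groups alone, the replicate block and a left-out library of the other line leave a subunit's estimate unchanged. In those settings only its adjusted p could move. For the difference between lines, 3 to 5 subunits were called lower and 0 to 1 higher when single libraries were left out. The 1 was CCT8 without Huh7 geniposide replicate 3. Of all genes 10.34% to 20.01% were called lower and 11.02% to 19.8% higher in those settings. The quantile count was 5 lower, against 14.7% of all genes, with CCT3 at -0.34. The difference of CCT6A turned to -0.0765 with quantile normalization, -0.0247 with voom and -0.0244 without Huh7 geniposide replicate 2, and ran up to 0.0855 over left-out libraries. Between untreated lines, 4 were called lower with TPM, quantile, voom or the compared groups alone, against 47.35%, 39.54%, 47.34% and 39.12% of all genes. Over left-out libraries 1 to 4 were called lower, against 33.25% to 38.79%. With TPM, quantile or voom, 2 were called higher, against 27.28%, 32.43% and 27.14%. CCT8 turned to -0.0210 with quantile normalization. Per principal transcript length, shares in untreated Huh7-labelled libraries were 12.2% for TCP1, 10.4% for CCT2, 21.98% for CCT3, 11.4% for CCT4, 6.27% for CCT5, 10.2% for CCT6A, 18.3% for CCT7 and 9.25% for CCT8. In HepG2-labelled libraries they were 6.45% for TCP1, 8.46% for CCT2, 25.0% for CCT3, 8.91% for CCT4, 13.1% for CCT5, 12.6% for CCT6A and 14.7% for CCT7. Without Huh7 geniposide replicate 3, the Huh7 changes of TXNDC9, TUBG1 and COMMD1 turned to -0.129, -0.126 and -0.0516, and with quantile normalization the HepG2 change of BBS12 turned to -0.0714. The causes were not tested. Samples with the same replicate number did not deviate together (r of -0.001 to 0.02 in Huh7-labelled and -0.061 to 0.019 in HepG2-labelled samples). With the replicate block, 8 and 8 subunits were called lower with geniposide, 3 lower in the difference (CCT4 at adjusted p = 0.0748) and 1 lower between lines (CCT4 at 0.0708). In the same order, 15.5%, 19.6%, 9.81% and 34.8% of all genes were called lower in that setting. Over all genes, calls in Huh7-labelled samples went from 5357 to 3266 with the compared groups alone, and between lines from 11146 to 7220 with a filter of 5 FPKM, which tested 9282 genes. The difference between lines needs both lines, so it was not fitted on groups alone.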
